A study of Homo sapiens with 19 samples.

Results

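The cells described here are THP-1 macrophages that never received vitamin C (vit C), and the comparison is of their RNA at 96 h with their RNA at 8 h of culture. THP-1 is an established human monocytic leukaemia line, which phorbol myristate acetate (PMA) turns into adherent, macrophage-like cells. The arrays were chosen by their titles, 3 of untreated (UT) cells at 96 h and 2 of UT cells at 8 h, and they make up 5 of the 19 arrays of the series. Both groups had been given 30 nM PMA for 16 to 18 h, were then given fresh medium and rested for 2 to 3 h, and the time counts from the end of that rest. In the other arms of the study, parallel flasks received 0.1 mM vit C at that point, and both kinds of flask were also harvested at 24 and 48 h. According to the methods, flasks were set up in triplicate as biological replicates, and samples whose RNA failed the integrity check were not hybridized, so the groups hold 2 and 3 flasks. All flasks came from the same cell line, so the p-values measure the spread between flasks of THP-1 cells and not between people.

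PMA activates protein kinase C in place of diacylglycerol, and in THP-1 cells this halts division, makes the cells adhere and starts a macrophage programme. Monocytes and macrophages recognise microbes through toll-like receptors, NOD-like receptors, Fc receptors, complement and scavenger receptors, and answer with cytokines, chemokines and proteases. Division itself runs on gene sets that E2F and MuvB complexes switch on in order, with DNA replication genes before mitosis genes.

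Levels are given as log2 of the processed signal minus the 75th percentile of the array, so that 0 is the 75th percentile and a rise of 1 unit multiplies the signal by 2. A level depends on the probe as well as on the RNA, and levels of different genes are therefore not compared. Of the array's 50238 probes, 32195 were well above background on every array of the 8 h group or of the 96 h group, and these named 21214 genes. Genes with probes that moved in opposite directions numbered 1924 and were set aside, which left 19290 genes tested, each by its brightest probe. A gene is called here when the log2 fold change of limma's fit was at least 1 in either direction with a Benjamini-Hochberg adjusted p-value, q, of at most 0.05. A gene bright in 1 group alone entered the test through that group, so list counts are also given over members well above background on all 5 arrays where the counts of a list of at least 10 genes differ by over 1.5 times, and of all 17111 such genes 9.98% were higher and 7.18% lower. Where a gene was not well above background on any array of a group, its change is given as at least N-fold, from the mean of the bright group and, on each dim array, the higher of its own signal and the lowest signal of any probe well above background there. The 75th percentile of the signal was 585.4 and 431.7 on the 8 h arrays and 378.0, 447.6 and 625.3 on the 96 h arrays, no spot was saturated, and 60.0% to 68.6% of probes were well above background. The 8 h arrays resembled each other closely (Pearson r = 0.9917 over 32195 probes), and replicate 3 at 96 h stood apart from replicates 1 and 2 (r = 0.9515 and 0.9417, against 0.9791 between those). Between the groups r was 0.9142 to 0.9485. Both 8 h arrays and replicate 1 at 96 h lay on slide 1, with the UT arrays of 24 and 48 h, while replicates 2 and 3 at 96 h lay on slide 2.

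At 96 h, 1976 genes were higher and 1608 lower than at 8 h, so that 18.6% of the genes tested were called, 10.2% of all genes higher and 8.34% lower. The median log2 fold change over all genes tested was -0.10. For 3562 of the 3584 called genes the arrays of the groups did not overlap, against 48.6% of all genes tested. Within slide 1, with replicate 1 as the only 96 h array, 1708 genes were called higher and 1375 lower, and without replicate 3 the counts were 1954 and 1611. With slide as a fixed term in the fit (the slide block) 7.86% of genes tested were called higher and 5.84% lower, and with only these 5 arrays in the fit 5.67% and 3.05%, and list counts from these fits are read against those shares. Among the called genes 167 were not well above background on any 8 h array and 216 were not so on any 96 h array. The RNA is that of whole flasks, in which fewer cells of a type and less RNA per cell cannot be told apart.

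**Figure D1:**
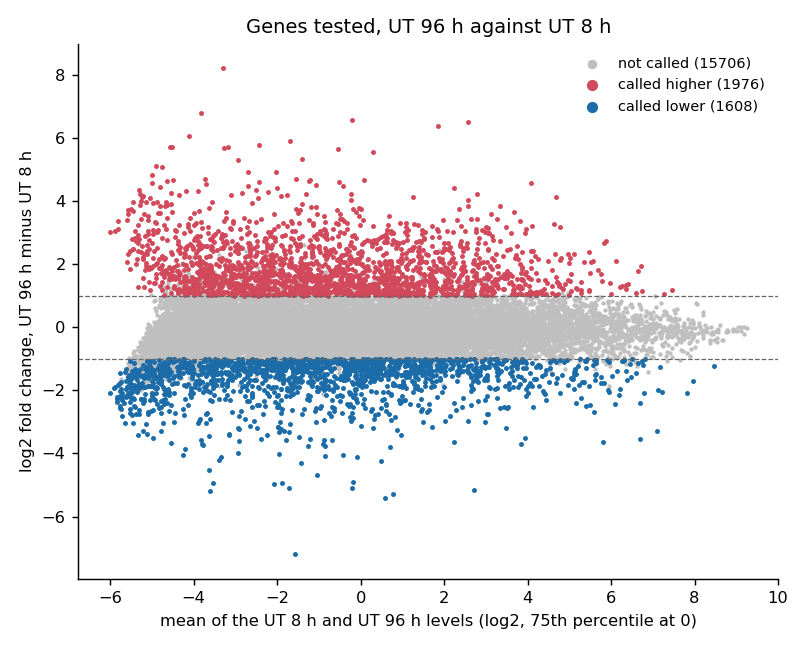
Log2 fold change of each gene tested (vertical axis, UT 96 h minus UT 8 h) against the mean of the group levels (horizontal axis, log2 with the 75th percentile at 0). The 1976 genes called higher and the 1608 called lower lie over the whole range of signal, and dashed lines mark a log2 fold change of 1 in either direction.

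Among genes well above background on all 5 arrays, S100A9 and S100A8, the subunits of the antimicrobial protein calprotectin, rose most, and secreted and surface proteins of myeloid cells followed. S100A9 lay at -3.59 and -3.40 at 8 h and 2.13, 2.90 and 4.21 at 96 h, a 95.2-fold rise (log2 fold change 6.57 ± 0.42 (SE), q = 6.57e-08). S100A8 lay at -0.73 and -0.62 at 8 h and 5.27, 5.92 and 6.27 at 96 h, an 89.8-fold rise (log2 fold change 6.49 ± 0.29 (SE), q = 3.64e-09). Replicate 3 was the highest 96 h array for both genes, and every 96 h array lay more than 5 units above every 8 h array. FN1, fibronectin of the extracellular matrix, lay at -1.33 and -1.32 at 8 h and 5.13, 4.29 and 5.71 at 96 h (log2 fold change 6.37 ± 0.35 (SE), q = 1.99e-08). FPR1, a receptor for formylated bacterial peptides, lay at -3.48 and -3.25 at 8 h and 2.12, 2.15 and 2.57 at 96 h (log2 fold change 5.64 ± 0.27 (SE), q = 9.52e-09). CHIT1, the chitinase that lipid-laden macrophages secrete, lay at -2.56 and -2.38 at 8 h and 3.50, 3.26 and 2.46 at 96 h (log2 fold change 5.54 ± 0.26 (SE), q = 7.79e-09). None of these groups overlapped, and CHIT1 was lowest at 96 h on replicate 3. GNLY, the antimicrobial granulysin, rose by 5.34, MARCO, a scavenger receptor for bacteria, by 4.66, STC2, a secreted glycoprotein, by 4.61, CD48, a surface ligand of the signalling lymphocyte family, by 4.61 and SLA, an adaptor that dampens receptor signalling, by 4.56 on the log2 scale. VCX and VCX3A rose by 4.71 and 4.65, but these X-linked copies are nearly identical and their probes may share RNA.

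Granule proteins of myeloid progenitors were among the 12 largest falls. CTSG, the protease cathepsin G, lay at 5.31 and 5.28 at 8 h and 0.39, -0.10 and 0.14 at 96 h, a 35.5-fold fall (log2 fold change -5.15 ± 0.59 (SE), q = 1.32e-05). PRTN3, proteinase 3, lay at 1.38 and 1.18 at 8 h and -3.29, -3.24 and -3.65 at 96 h (log2 fold change -4.67 ± 0.31 (SE), q = 8.02e-08). AZU1, the granule protein azurocidin, lay at 1.65 and 1.58 at 8 h and -2.05, -2.08 and -3.24 at 96 h (log2 fold change -4.06 ± 0.30 (SE), q = 1.9e-07). All 3 were lower on each 96 h array than on each 8 h array. GPAT3, an acyltransferase of triglyceride synthesis that the array lists under its older name MAG1, lay at 3.30 and 3.53 at 8 h and -2.15, -2.05 and -1.38 at 96 h (log2 fold change -5.27 ± 0.23 (SE), q = 3.64e-09). Of the secreted factors, TGFB3, a transforming growth factor, changed by -5.08, LIF, a cytokine of the interleukin-6 family, by -4.92 and NPTX1, a pentraxin, by -4.92. DMRT2, a transcription factor, changed by -5.10, KCNJ1, a potassium channel, by -4.23, MLC1, a membrane protein, by -4.11, ADAMTS1, a matrix protease, by -4.02 and TM4SF19, a tetraspan membrane protein, by -3.78. The calls of these 24 genes held in every fit that left out 1 of the 5 arrays. Names of open reading frames, transcripts and clones were left out of both sets of 12, and 2 of these would have ranked among the rises and 3 among the falls, with OCSTAMP, listed as C20orf123, at -5.41 the largest fall among genes well above background on all 5 arrays.

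**Figure D2:**
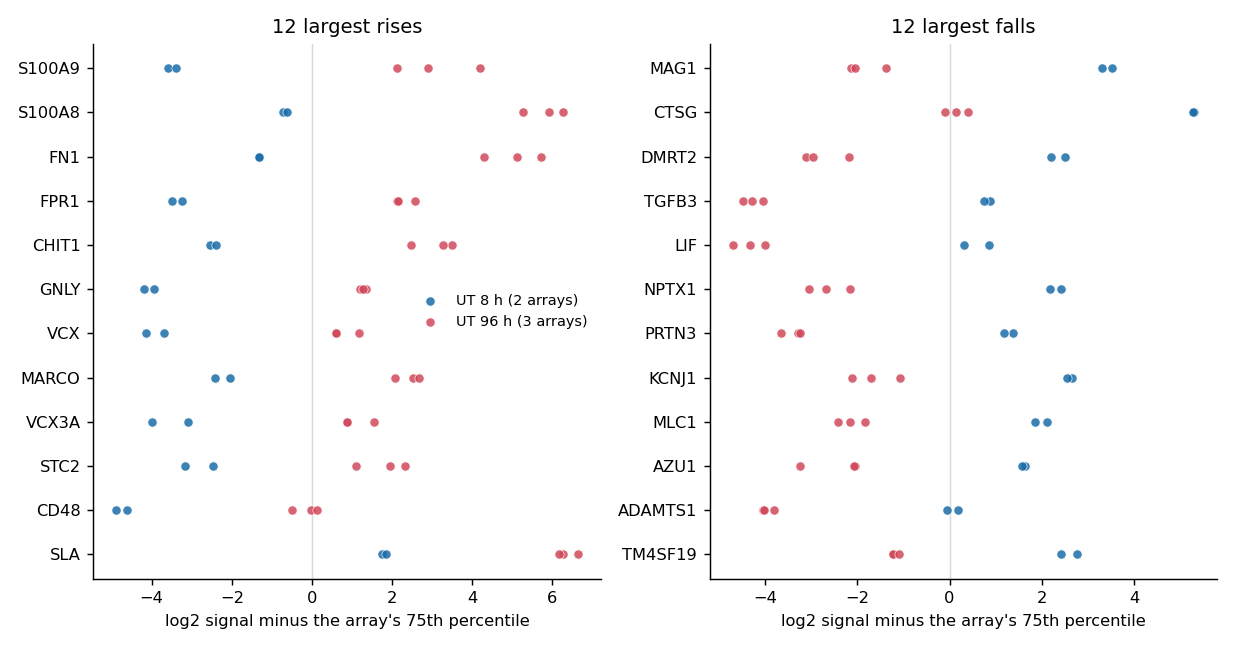
Levels of the 12 largest rises and the 12 largest falls among genes well above background on all 5 arrays and listed under a gene symbol, with 1 point per array on a log2 axis. Blue points are the 2 arrays at 8 h and red points the 3 arrays at 96 h, and the groups are apart for each of the 24 genes.

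Cell division genes rose as a group. Of 46 genes of DNA replication tested, 42 were called higher and 0 lower, with a median log2 fold change of 2.11, against 10.2% called higher among all genes tested. TYMS, which makes thymidylate, lay at 2.40 and 2.62 at 8 h and 5.47, 5.59 and 6.10 at 96 h (log2 fold change 3.21 ± 0.25 (SE), q = 3.71e-07). GINS4, a subunit of the replicative helicase, lay at -3.74 and -3.49 at 8 h and -1.04, -0.67 and -0.48 at 96 h (log2 fold change 2.89 ± 0.24 (SE), q = 5.43e-07). DTL, which marks the licensing factor CDT1 for degradation, lay at -0.77 and -0.84 at 8 h and 1.99, 2.06 and 2.04 at 96 h (log2 fold change 2.83 ± 0.20 (SE), q = 1.24e-07). In each case the lowest 96 h array was more than 2 units above the highest 8 h array. PCNA, the sliding clamp of DNA polymerases, lay at 1.64 and 1.67 at 8 h and 3.36, 3.44 and 4.52 at 96 h (log2 fold change 2.12 ± 0.31 (SE), q = 0.000129), with replicate 3 more than 1 unit above the other 96 h arrays. The helicase loader CDC6 rose by 2.11, the licensing factor CDT1 by 2.75, the helicase subunits MCM2 and MCM6 by 1.93 and 1.75, the clamp loader subunit RFC3 by 2.82, the ribonucleotide reductase subunit RRM2 by 2.40 and thymidine kinase TK1 by 2.72. The 4 members that missed the call included POLA2, a subunit of the primase complex, at -0.11 and -0.07 at 8 h and 1.44, 1.85 and -0.27 at 96 h (log2 fold change 1.09, q = 0.073), where replicate 3 lay below the 8 h arrays. Without replicate 3, 41 of the list were called higher.

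All 46 mitosis genes tested were called higher and 0 lower, with a median of 3.04. The rise ranged from 1.55 to 4.02 on the log2 scale, and the same 46 of 46 were called without replicate 3, within slide 1 and with normexp background correction. KIF11, the kinesin that separates spindle poles, lay at -2.28 and -2.19 at 8 h and 1.52, 1.37 and 2.47 at 96 h (log2 fold change 4.02 ± 0.28 (SE), q = 1.14e-07). CEP55, which organises the bridge between daughter cells, lay at 0.54 and 0.77 at 8 h and 4.47, 4.24 and 4.81 at 96 h (log2 fold change 3.85 ± 0.22 (SE), q = 3.4e-08). NDC80, of the kinetochore, lay at 1.35 and 1.50 at 8 h and 5.23, 5.08 and 5.51 at 96 h (log2 fold change 3.85 ± 0.20 (SE), q = 1.44e-08). No array of one group reached those of the other. CDK1, the kinase of mitotic entry that the array lists as CDC2, rose by 3.16, its partner CCNB1 by 2.98, the kinase PLK1 by 2.98, the checkpoint kinase BUB1 by 3.16, the motor protein KIF20A by 3.73, topoisomerase TOP2A by 2.69 and the proliferation marker MKI67 by 2.88. FOXM1, the transcription factor that works with MuvB at mitotic promoters, lay at -1.45 and -1.60 at 8 h and 1.63, 1.56 and 0.75 at 96 h (log2 fold change 2.84 ± 0.25 (SE), q = 9.44e-07). AURKA and AURKB, the kinases of the spindle and of chromosome segregation, rose by 1.79 and 2.50. CCNB2 had probes in opposite directions and was set aside.

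The promoters of these genes are shown because the CHR element, to which MuvB complexes bind, and the E2F site are the elements known for the timing of mitosis and replication genes. The windows are those of RefSeq on GRCh38.p14, from 250 bases before to 50 after a start, and 9851 of the 12624 current symbols tested had 1 or more. The letters TTTGAA were taken for the CHR, and TTTGGCGC, TTTCGCGC, TTTCCCGC and TTTGCCGC for E2F, on both strands, and overlapping matches were counted. TTTGAA was found in 34 of the 49 windows of mitosis genes (69.4%) and in 3.9% of the 51 windows of replication genes, against 11.3% of the windows of genes tested and 15.2% of all 35116 windows. An E2F match was found in 41.2% of the windows of replication genes and in 10.2% of those of mitosis genes, against 4.6% of the windows of genes tested and 3.3% of all. A match is a description of letters and not a site shown to be bound, and no match says only that the letters are absent from the window. For 5 mitosis genes the last 80 bases before the start are printed 5′ to 3′ on the strand of the gene, with TTTGAA or its reverse complement in capitals. The stretches are chr1:43358901-43358980 (CDC20, an activator of the anaphase-promoting complex, plus strand), chr16:23678809-23678888 (PLK1, plus), chr10:92593050-92593129 (KIF11, plus), chr15:40160989-40161068 (BUB1B, a checkpoint kinase, plus) and chr2:26785976-26786055 (CENPA, the histone of centromeres, plus).
CDC20: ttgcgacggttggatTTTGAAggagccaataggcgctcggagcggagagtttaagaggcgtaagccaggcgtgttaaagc
PLK1: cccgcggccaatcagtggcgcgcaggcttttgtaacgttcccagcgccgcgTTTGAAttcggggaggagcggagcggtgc
KIF11: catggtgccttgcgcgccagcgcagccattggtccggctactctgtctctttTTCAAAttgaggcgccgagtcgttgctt
BUB1B: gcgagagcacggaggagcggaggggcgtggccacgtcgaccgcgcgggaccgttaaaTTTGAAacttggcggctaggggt
CENPA: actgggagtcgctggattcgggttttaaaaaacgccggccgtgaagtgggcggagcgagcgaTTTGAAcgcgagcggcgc
All 5 genes were called, CDC20 with 2.44, PLK1 with 2.98, KIF11 with 4.02, BUB1B with 2.70 and CENPA with 3.43 on the log2 scale.

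For 4 replication genes the stretch holds an E2F match in capitals, which are chr16:88803709-88803788 (CDT1, plus), chr20:5126623-5126702 (PCNA, minus), chr11:65261882-65261961 (POLA2, plus) and chr2:135876522-135876603 (MCM6, minus, ending 79 bases before the start).
CDT1: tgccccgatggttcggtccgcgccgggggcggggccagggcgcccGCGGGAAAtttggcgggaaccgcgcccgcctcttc
PCNA: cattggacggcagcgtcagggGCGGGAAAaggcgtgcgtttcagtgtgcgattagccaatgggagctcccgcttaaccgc
POLA2: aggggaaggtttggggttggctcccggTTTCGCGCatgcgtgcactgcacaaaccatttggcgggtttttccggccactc
MCM6: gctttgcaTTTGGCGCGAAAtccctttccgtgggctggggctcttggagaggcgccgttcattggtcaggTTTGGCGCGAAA
The MCM6 stretch holds 4 overlapping matches in 2 runs. CDT1, PCNA and MCM6 were called higher, with 2.75, 2.12 and 1.75, and POLA2 was not. The genes shown were picked for their matches after the counts were known.

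Inhibitors and activators of cyclin-dependent kinases moved in both directions. Of 13 genes tested, 7 were called higher and 3 lower (10.2% and 8.34% of all genes), and with the 5 arrays alone 5 and 1 (5.67% and 3.05%). CDKN3, a phosphatase of CDK1, lay at 0.92 and 1.02 at 8 h and 3.82, 3.88 and 4.36 at 96 h (log2 fold change 3.05 ± 0.20 (SE), q = 8.19e-08). CDKN2D, an inhibitor of the D-type cyclin kinases, lay at 0.05 and 0.62 at 8 h and 3.24, 3.47 and 3.44 at 96 h (log2 fold change 3.04 ± 0.21 (SE), q = 1.24e-07). CDKN1A, the inhibitor p21 that PMA is known to induce, lay at 5.91 and 5.91 at 8 h and 4.43, 4.67 and 3.71 at 96 h (log2 fold change -1.64 ± 0.24 (SE), q = 0.000132). CDKN1A thus ended lower on each 96 h array, whereas the inhibitors CDKN2C, CDKN1B and CDKN1C rose by 2.03, 1.44 and 1.84. The CDKN1B call was lost with the slide block (0.82, q = 0.093), within slide 1 (q = 0.0949) and with the 5 arrays alone (q = 0.0971). CCNE1, the cyclin of entry into DNA replication, rose by 1.71, while CDK6 changed by -1.29 and CCND1, a D-type cyclin, by -1.06. The CCND1 call was lost without 96 h replicate 3 (-0.83, q = 0.00431), with the slide block (-0.77) and with the 5 arrays alone (q = 0.129). That of CDK6 was lost with the 5 arrays alone (q = 0.101). CCNE2, a second cyclin of that step with 1 of the 8 h arrays well above background, lay at -4.74 and -5.29 at 8 h and -3.52, -3.16 and 0.05 at 96 h (log2 fold change 2.81, q = 0.0202), with replicate 3 far above the other 96 h arrays. The CCNE2 change was 1.68 without 96 h replicate 3, and the call was lost with the slide block (1.50, q = 0.445), within slide 1 (q = 0.179) and with the 5 arrays alone (q = 0.162) and without 8 h replicate 1 or 8 h replicate 2 (2.53 to 3.08, q = 0.0673 to 0.133).

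Markers of the monocyte and macrophage lineage had 5 of 18 tested called higher and 5 lower (10.2% and 8.34% of all genes), with a median of -0.06, and with the 5 arrays alone 4 and 3 (5.67% and 3.05%). VSIG4, a complement receptor of tissue macrophages, lay at 0.02 and 0.05 at 8 h and 4.62, 4.31 and 4.44 at 96 h (log2 fold change 4.42 ± 0.17 (SE), q = 1.19e-09). CD14, the co-receptor for lipopolysaccharide, lay at 0.73 and 0.65 at 8 h and 5.17, 5.10 and 4.47 at 96 h, an 18.7-fold rise (log2 fold change 4.23 ± 0.26 (SE), q = 5.05e-08). ADGRE1, the surface receptor listed as EMR1, and AIF1, an actin-binding protein of macrophages, rose by 2.91 and 2.14, and CD163, the haemoglobin scavenger, by 1.35. All 5 were higher on each 96 h array, and the CD163 call was lost with the 5 arrays alone (q = 0.0911). ITGAX, the integrin CD11c, lay at 4.57 and 4.60 at 8 h and 3.12, 2.72 and 2.28 at 96 h (log2 fold change -1.88 ± 0.21 (SE), q = 9.57e-06). CD209, a lectin of dendritic cells, changed by -2.45, and SIGLEC1, a sialic acid receptor, by -2.91, with 1 of the 3 arrays at 96 h well above background and a call lost with normexp background correction (-0.98, q = 0.00441). LYZ, lysozyme, and CD68, a lysosomal membrane protein, changed by -1.46 and -1.51. The call of LYZ was lost without 8 h replicate 2 (-1.25), with normexp (-0.88, q = 0.00239) and with the 5 arrays alone (q = 0.082). That of CD68 was lost without 8 h replicate 1 (-1.23), with the slide block (-1.21) and with the 5 arrays alone (q = 0.132). CSF1R, the receptor for macrophage colony-stimulating factor, lay at 8.26 and 8.50 at 8 h and 8.04, 8.13 and 7.96 at 96 h (log2 fold change -0.33, q = 0.193), and ITGAM, the integrin CD11b, at 2.60 and 2.53 at 8 h and 2.62, 2.37 and 2.51 at 96 h (log2 fold change -0.07, q = 0.78). Neither passed, and both were well above background on all 5 arrays.

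Of 11 granule and progenitor genes tested, 7 were called lower and 1 higher, against 8.34% of all genes lower. ELANE, neutrophil elastase, which the array lists as ELA2, lay at 2.10 and 1.98 at 8 h and -5.13, -4.39 and -5.97 at 96 h (log2 fold change -7.20 ± 0.41 (SE), q = 2.93e-08), and only 1 of the 96 h arrays was well above background there. MPO, myeloperoxidase, was not well above background on any 96 h array, and its fall was at least 1.83-fold (q = 0.00337), with a call lost with normexp background correction (-0.26, q = 0.354). KIT, the receptor for stem cell factor, went the other way and lay at -5.10 and -4.71 at 8 h and -2.99, -2.91 and -2.64 at 96 h (log2 fold change 2.06 ± 0.38 (SE), q = 0.000811), a call lost with normexp background correction (0.78, q = 0.00299). MYB, a transcription factor of progenitors, lay at 2.17 and 2.40 at 8 h and 1.70, 1.73 and 2.53 at 96 h (log2 fold change -0.29, q = 0.447), so its groups overlapped. Among 15 S100 genes tested, 5 were called higher and 2 lower (10.2% and 8.34% of all genes). Beside S100A8 and S100A9, S100A12, a proinflammatory relative, lay at -3.63 and -3.21 at 8 h and 0.24, 0.91 and 1.29 at 96 h (log2 fold change 4.23 ± 0.30 (SE), q = 1.31e-07), and S100B rose by 4.49, with 1 of the 8 h arrays well above background. S100A2 changed by -1.45. The other lower call, S100Z, a gene on no 96 h array well above background, fell at least 1.1-fold, and the call was lost without 8 h replicate 1 or 2 or 96 h replicate 1 or 3 (q = 0.0518 to 0.151), with the slide block (q = 0.106), with the 5 arrays alone (q = 0.127) and with normexp (q = 0.61). The lower count of the list was 1 without 8 h replicate 2, 1 without 96 h replicate 1 and 1 with the 5 arrays alone, and of the 12 members well above background on all 5 arrays 4 were higher and 1 lower.

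Of 23 genes tested of the toll-like and NOD-like receptors with their co-receptors, adaptors, kinases and protease, 11 were called higher and 3 lower (10.2% and 8.34% of all genes), with a median of 0.63. The receptors themselves, genes named TLR, NOD, NLR or NAIP, had 7 of 12 higher and 1 lower. NOD2, a sensor of bacterial muramyl dipeptide, lay at -2.64 and -2.51 at 8 h and -0.16, 0.19 and 0.95 at 96 h (log2 fold change 2.90 ± 0.27 (SE), q = 2.11e-06). TLR8, a sensor of RNA in endosomes, lay at -3.65 and -4.24 at 8 h and -1.39, -1.85 and -0.81 at 96 h (log2 fold change 2.60 ± 0.28 (SE), q = 8.04e-06). NLRP12, a regulator of inflammasome and NF-kappa-B signalling, lay at -4.13 and -4.22 at 8 h and -0.17, -0.60 and -1.77 at 96 h (log2 fold change 3.33 ± 0.63 (SE), q = 0.00105). Each of these was higher on every 96 h array. LY96, the partner of TLR4 in binding lipopolysaccharide, TLR7, another RNA sensor, CASP1, the inflammasome protease, and PYCARD, its adaptor, rose by 1.88, 1.45, 1.40 and 1.30. AIM2, a sensor of cytosolic DNA, changed by -1.30, TLR9, which senses unmethylated DNA, by -1.14 and TICAM1, the adaptor of TLR3, by -1.03. The call of TLR9 was lost without 8 h replicate 1 (-0.87, q = 0.0655) and that of TICAM1 without 8 h replicate 2 or 96 h replicate 1 (-0.97 to -0.97, q = 0.00385 to 0.0186). In the fit of the 5 arrays alone the calls of TLR7, CASP1 and AIM2 were lost (q = 0.0523, 0.064 and 0.108), and 7 genes of the list were called higher and 0 lower (5.67% and 3.05% of all), while with normexp 9 were higher and 1 lower (7.08% and 4.68%). NLRP3 lay at 4.86 and 4.89 at 8 h and 4.10, 4.14 and 4.29 at 96 h and TLR2 at 4.92 and 5.07 at 8 h and 4.15, 4.10 and 4.68 at 96 h, with log2 fold changes of -0.70 and -0.69 that did not reach 1.

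Complement genes, with their receptors and regulators, had 9 of 18 tested higher, 3 lower (10.2% and 8.34% of all genes) and a median of 1.19. Of the 13 well above background on all 5 arrays 5 rose and 3 fell past the threshold, and the median was 0.80. C1QA, a chain of the recognition molecule of the classical pathway, lay at -5.08 and -5.03 at 8 h and -1.13, -0.80 and -2.24 at 96 h (log2 fold change 3.67 ± 0.38 (SE), q = 5.26e-06). C1QB, another chain, lay at -4.77 and -6.44 at 8 h and -2.24, -2.23 and -2.44 at 96 h (log2 fold change 3.31 ± 0.42 (SE), q = 3.14e-05). Only 1 of the 8 h arrays was well above background for either gene, and for C1QC none was, which leaves a rise of at least 2.03-fold, a call lost with normexp background correction (0.48, q = 0.0994). CFD, the protease factor D of the alternative pathway, lay at 5.04 and 5.10 at 8 h and 2.97, 2.86 and 3.08 at 96 h (log2 fold change -2.10 ± 0.19 (SE), q = 1.48e-06). C3 lay at 4.12 and 4.03 at 8 h and 5.39, 5.39 and 4.01 at 96 h (log2 fold change 0.85, q = 0.0701) and did not pass. Of 10 Fc receptor genes tested, 3 were called higher and 3 lower (10.2% and 8.34% of all genes). FCGR3A, a receptor for immune complexes, lay at -3.34 and -3.33 at 8 h and 1.19, 1.01 and 1.33 at 96 h (log2 fold change 4.51 ± 0.18 (SE), q = 1.98e-09), and FCGR3B rose at least 3.73-fold, but these copies are nearly identical and their RNA may not be told apart by the probes, and the call of FCGR3B was lost with normexp background correction (0.83, q = 0.014). FCGR2B, the inhibitory receptor, rose by 2.85, but by 1.11 without 8 h replicate 1, 1.32 without 96 h replicate 1 and 1.41 without 96 h replicate 2. FCER2, the low-affinity receptor for IgE, was well above background on both 8 h arrays and on no 96 h array, a fall of at least 7.96-fold (q = 0.000156). FCAR, a receptor for IgA, changed by -1.49, and its call was lost without 8 h replicate 1 (-1.33, q = 0.0716). FCGRT, which recycles IgG, fell 2-fold, and its call was lost without 8 h replicate 1 or 96 h replicate 3 (-0.77 to -0.89, q = 0.00491 to 0.0508). Without 8 h replicate 1, 1 Fc receptor gene was lower, as with the 5 arrays alone and with normexp, and of the 8 well above background on all 5 arrays 2 were higher and 2 lower.

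Genes of scavenging and efferocytosis, receptors and their ligands, had 4 of 24 called higher and 4 lower (10.2% and 8.34% of all genes), with the slide block 4 and 2 (7.86% and 5.84% of all) and with the 5 arrays alone 2 and 2 (5.67% and 3.05%). MARCO rose as given, and CXCL16, a membrane chemokine that also binds oxidised lipoprotein, lay at -1.33 and -0.93 at 8 h and -0.02, 0.15 and 0.12 at 96 h (log2 fold change 1.21 ± 0.19 (SE), q = 0.000205), a call lost with the 5 arrays alone (q = 0.0636). COLEC12, a scavenger lectin, was not well above background at 8 h, and its rise was at least 3.02-fold, a call lost with normexp background correction (0.70, q = 0.00643). AXL, a receptor for apoptotic cells, lay at 1.26 and 1.25 at 8 h and -1.76, -1.76 and -1.66 at 96 h (log2 fold change -2.98 ± 0.20 (SE), q = 1.08e-07), whereas the related MERTK lay at 2.90 and 2.76 at 8 h and 3.22, 3.58 and 4.27 at 96 h (log2 fold change 0.86, q = 0.0485). CD300LB, an activating receptor, changed by -2.16 and STAB1, a clearance receptor, by -1.97, a call lost with the slide block (-1.83, q = 0.0877) and with the 5 arrays alone (q = 0.102). CD36, which takes up oxidised lipoprotein, lay at 5.35 and 5.50 at 8 h and 5.14, 4.75 and 5.30 at 96 h (log2 fold change -0.37, q = 0.224), so every 96 h array was lower but the change was small and did not pass. Of 17 genes of antigen presentation by MHC class II and CD1, 1 was called higher and 1 lower (10.2% and 8.34% of all genes). Among them 1 of 10 HLA genes was higher and 0 lower, and 1 of 4 CD1 genes was lower, with the slide block 2 genes of the list were higher, and of the 15 well above background on all 5 arrays 1 was higher and 0 lower. HLA-DMB, which loads peptides, lay at -2.01 and -1.92 at 8 h and -0.75, -0.44 and -0.10 at 96 h (log2 fold change 1.54 ± 0.22 (SE), q = 0.000101), while HLA-DRB1 lay at 2.52 and 2.44 at 8 h and 2.92, 2.93 and 2.13 at 96 h (log2 fold change 0.18, q = 0.75) and CIITA, the master regulator of the class, at -3.83 and -3.42 at 8 h and -3.51, -3.84 and -4.00 at 96 h (log2 fold change -0.16, q = 0.647). CD1B, the lipid-presenting member called lower at -1.06, was well above background on 1 of the 96 h arrays, and its call was lost without 8 h replicate 1, 8 h replicate 2 or 96 h replicate 1 (-0.61 to -1.30, q = 0.0772 to 0.262), while with the slide block the change was -1.97.

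Genes of the AP-1 and EGR families and the feedback genes of MAP kinase signalling were mostly lower where they passed. Of 31 tested, 16 were called lower and 1 higher, with a median of -1.02, against 8.34% of all genes lower, and 9 were lower with the 5 arrays alone (3.05% of all). EGR1, the zinc finger factor that PMA and growth factors induce within an hour, lay at 3.99 and 4.13 at 8 h and 0.44, -0.02 and 0.80 at 96 h, a 12.5-fold fall (log2 fold change -3.65 ± 0.26 (SE), q = 1.25e-07). DUSP2, a phosphatase of MAP kinases, lay at 3.54 and 3.45 at 8 h and 0.87, 0.77 and -0.05 at 96 h (log2 fold change -2.97 ± 0.24 (SE), q = 4.11e-07). EGR2 and EGR3 changed by -2.31 and -2.33, the latter with 2 of the 96 h arrays well above background, and EGR4, on no 96 h array well above background, fell at least 13.3-fold. The groups did not overlap for any of these. FOSL1, an AP-1 subunit, changed by -1.35 and its call was lost without 8 h replicate 1 or 96 h replicate 3 (-0.95 to -1.26, q = 0.00519 to 0.0523). JUN lay at 5.67 and 5.85 at 8 h and 5.61, 5.83 and 5.11 at 96 h and FOS at 5.12 and 4.86 at 8 h and 4.27, 3.24 and 4.75 at 96 h, with log2 fold changes of -0.24 (q = 0.515) and -0.90 (q = 0.131), so neither passed. CCN1, a matricellular growth regulator listed as CYR61, was the member that rose (log2 fold change 2.59 ± 0.30 (SE), q = 1.66e-05).

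Among 21 cytokine genes tested, 6 were called lower and 3 higher (8.34% and 10.2% of all genes), and with the 5 arrays alone 1 was higher (5.67% of all). TNF lay at 4.53 and 4.45 at 8 h and 1.86, 1.61 and 0.97 at 96 h, an 8.08-fold fall (log2 fold change -3.01 ± 0.23 (SE), q = 3.26e-07). TNFSF15, a relative of TNF, changed by -4.00, with 1 of the 3 arrays at 96 h well above background, and IL1RN, the antagonist of interleukin-1, lay at 4.93 and 4.95 at 8 h and 3.42, 3.29 and 2.79 at 96 h (log2 fold change -1.77 ± 0.21 (SE), q = 1.63e-05). IL6 lay at -4.64 and -5.09 at 8 h and -2.23, -2.68 and -1.56 at 96 h (log2 fold change 2.71 ± 0.34 (SE), q = 3.39e-05), so it went the opposite way from TNF, with 1 of the 8 h arrays well above background. IL18, which CASP1 activates, and IL23A, a subunit of interleukin-23, rose by 1.83 and 1.28, with the IL18 change at 1.16 without 96 h replicate 3, the IL18 call lost with the slide block (1.35, q = 0.183) and with the 5 arrays alone (q = 0.155) and the IL23A call with the 5 arrays alone (q = 0.0613). IL1B lay at 8.02 and 8.42 at 8 h and 7.29, 7.41 and 7.53 at 96 h (log2 fold change -0.81, q = 0.0192), below 1 in size. Of 27 chemokine genes 6 were called higher and 4 lower (10.2% and 8.34% of all genes). CXCL5, which attracts neutrophils, lay at -1.12 and -1.14 at 8 h and 0.91, 1.52 and 2.37 at 96 h (log2 fold change 2.73 ± 0.32 (SE), q = 1.45e-05), and PPBP, a platelet chemokine, rose at least 13.8-fold. CCL7, which attracts monocytes, rose by 1.34, a call lost with the slide block (0.90, q = 0.169), within slide 1 (q = 0.116) and with the 5 arrays alone (q = 0.106). CCL3, which attracts monocytes and T cells, lay at 8.11 and 8.10 at 8 h and 5.90, 6.01 and 6.45 at 96 h (log2 fold change -1.99 ± 0.19 (SE), q = 1.99e-06), and its relatives CCL4 and CCL5 changed by -1.22 and -1.21, with the CCL4 call lost with the 5 arrays alone (q = 0.0572). CXCL8, the neutrophil attractant listed as IL8, lay at 2.91 and 2.97 at 8 h and 0.31, 3.65 and 3.94 at 96 h, with replicate 1 more than 3 units below the other 96 h arrays, and was not called. The median log2 fold change of the chemokines was -0.16, and -0.25 with the slide block or within slide 1. Both of these rest on replicate 1 as the 96 h array, so slide and replicate cannot be told apart. Without replicate 3, 4 chemokines were called higher and 4 lower, and with the 5 arrays alone 2 and 1 (5.67% and 3.05%). The call of CXCL6, at 1.58, was lost without 8 h replicate 1, 8 h replicate 2 or 96 h replicate 3 (0.83 to 1.87, q = 0.0514 to 0.227) and with the slide block (0.70), and that of CCL5 without 96 h replicate 3 (-0.90, q = 0.00822). CCL3 and CCL4 have near-identical gene copies whose RNA the probes may share.

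Of 24 genes of NF-kappa-B subunits, inhibitors and targets 4 were called lower and 1 higher (8.34% and 10.2% of all genes), with the slide block 4 and 0, without replicate 3 6 and 0 and with the 5 arrays alone 1 and 0. TRAF1, an adaptor of TNF receptors, lay at 2.71 and 2.45 at 8 h and 0.32, 0.27 and 0.34 at 96 h (log2 fold change -2.27 ± 0.17 (SE), q = 2.8e-07). BIRC3, an inhibitor of apoptosis, BCL3, a co-activator, and ICAM1, an adhesion molecule, changed by -1.52, -1.32 and -1.20, but in the fit of the 5 arrays alone all 3 calls were lost (q = 0.0829, 0.0518 and 0.0602). IRAK3, a brake on toll-like receptor signals, lay at -0.19 and -0.38 at 8 h and 0.55, 0.61 and 1.30 at 96 h (log2 fold change 1.10 ± 0.22 (SE), q = 0.00182), and its call was lost without 96 h replicate 3 (0.86, q = 0.00192). NFKBIA and TNFAIP3, the feedback inhibitors best known for the pathway, had log2 fold changes of -0.81 and -0.55, both under 1 in size. Of 45 interferon-stimulated genes, 9 were called lower and 3 higher (8.34% and 10.2% of all genes). ISG20, an exonuclease, lay at 5.01 and 5.15 at 8 h and 1.80, 1.95 and 1.92 at 96 h (log2 fold change -3.18 ± 0.17 (SE), q = 1.44e-08). IRF7, the factor of interferon-alpha induction, lay at 5.38 and 5.40 at 8 h and 2.79, 2.95 and 2.81 at 96 h (log2 fold change -2.54 ± 0.20 (SE), q = 4.42e-07), and MX1 and ISG15, antiviral effectors, changed by -1.49 and -1.20, with the ISG15 call lost with the 5 arrays alone (q = 0.06). GBP1, a guanylate-binding protein, went up, at -2.44 and -2.58 at 8 h and 0.13, -0.52 and 1.42 at 96 h (log2 fold change 2.86 ± 0.45 (SE), q = 0.000237), as did HERC5, the ligase of ISG15, and PSMB9, of the immunoproteasome, by 1.78 and 1.50. Without replicate 3, 13 interferon-stimulated genes were lower and 4 higher, and with the 5 arrays alone 3 and 3 (3.05% and 5.67% of all).

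Matrix proteases and their inhibitors showed 9 of 23 lower and 5 higher (8.34% and 10.2% of all genes), with a median of -0.83. MMP12, macrophage elastase, lay at -0.64 and -0.19 at 8 h and -4.22, -3.67 and -2.80 at 96 h (log2 fold change -3.15 ± 0.35 (SE), q = 1.02e-05). MMP19, a protease of basement membrane, changed by -2.21, and MMP9, gelatinase B, lay at 8.96 and 9.18 at 8 h and 7.97, 8.01 and 7.55 at 96 h (log2 fold change -1.23 ± 0.23 (SE), q = 0.0011), a call lost with the slide block (-1.10, q = 0.0522) and with the 5 arrays alone (q = 0.0691). MMP7, matrilysin, lay at 1.20 and 0.95 at 8 h and 4.40, 4.17 and 4.96 at 96 h (log2 fold change 3.43 ± 0.23 (SE), q = 8.75e-08), and MMP8, neutrophil collagenase, rose by 3.69, with 1 of the 8 h arrays well above background. MMP3 and MMP10, the stromelysins, rose by 1.50 and 1.88, and the call of MMP3 was lost without 8 h replicate 1 (1.39, q = 0.0508) and that of MMP10 without 8 h replicate 1 (1.82, q = 0.0501) and with the slide block (1.20). Without 8 h replicate 1, 2 genes of the list were called higher and 9 lower, with normexp 2 and 7 and with the 5 arrays alone 2 and 6. MMP14, a membrane protease, lay at 4.79 and 4.04 at 8 h and 5.27, 3.00 and 1.01 at 96 h, a spread at 96 h of more than 4 units, and was not called. Of 28 matrix genes, 8 were called higher and 6 lower (10.2% and 8.34% of all genes), of the 23 well above background on all 5 arrays 5 and 5, and with the 5 arrays alone 5 and 2 (5.67% and 3.05%). DCN, the proteoglycan decorin, lay at -5.29 and -5.87 at 8 h and -0.64, -0.57 and 0.36 at 96 h (log2 fold change 5.30 ± 0.38 (SE), q = 1.7e-07), with 1 of the 8 h arrays well above background. SPARC, a collagen-binding glycoprotein, VCAN, a proteoglycan, and TGFBI, an adhesion protein, rose by 2.95, 1.96 and 1.14, SPARC with 1 of the 8 h arrays well above background, and the TGFBI call was lost with the 5 arrays alone (q = 0.0651). COL6A1, a chain of collagen VI, lay at 5.93 and 5.80 at 8 h and 4.40, 4.54 and 4.16 at 96 h (log2 fold change -1.50 ± 0.20 (SE), q = 5.32e-05). SPP1, osteopontin, lay at 7.02 and 7.16 at 8 h and 6.86, 6.62 and 7.72 at 96 h (log2 fold change -0.03, q = 0.96) and overlapped between the groups. Of 21 integrins, 5 were lower and 2 higher (8.34% and 10.2% of all genes), with the slide block 3 and 1 (5.84% and 7.86% of all), with normexp 2 and 1, and 1 was higher without any 1 of the arrays other than 96 h replicate 3. ITGA5, the chain that binds fibronectin, lay at 3.74 and 3.16 at 8 h and 1.73, 1.32 and 0.05 at 96 h (log2 fold change -2.42 ± 0.37 (SE), q = 0.000182), in the opposite direction from FN1. ITGA1, which binds collagen, lay at -2.28 and -2.29 at 8 h and 0.37, 0.14 and 1.38 at 96 h (log2 fold change 2.91 ± 0.33 (SE), q = 1.09e-05). ITGB2 lay at 6.24 and 6.33 at 8 h and 5.87, 6.73 and 6.49 at 96 h (log2 fold change 0.08, q = 0.886) and ITGB1 at 3.11 and 2.87 at 8 h and 3.72, 2.34 and 3.44 at 96 h (log2 fold change 0.18, q = 0.747), so neither passed. The call of ITGA3, at 1.09, was lost without 8 h replicate 1, 8 h replicate 2, 96 h replicate 1 or 96 h replicate 2 (0.85 to 1.19, q = 0.102 to 0.185), and that of ITGB3, at -1.08, without 8 h replicate 2 or 96 h replicate 3 (-0.73 to -0.81, q = 0.0625 to 0.218) and with the slide block (-0.69).

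Transcription factors of the lineage were called lower in 10 of 37 cases and higher in 6, beside 8.34% and 10.2% of all genes tested. The slide block left 5 lower and 7 higher, and the fit of the 5 arrays alone 3 and 5. IRF8, a factor of the monocyte lineage, and SPI1, which encodes PU.1, changed by -1.39 and -1.05, but the call of IRF8 was lost without 8 h replicate 1 (-1.32, q = 0.0601) and that of SPI1 without 8 h replicate 1, 8 h replicate 2 or 96 h replicate 3 (-0.71 to -1.17, q = 0.0394 to 0.132). ID1, an inhibitor of basic helix-loop-helix factors, lay at 0.76 and 0.76 at 8 h and 2.96, 3.06 and 3.50 at 96 h (log2 fold change 2.42 ± 0.20 (SE), q = 6.66e-07). ID3, its relative, lay at -1.36 and -1.81 at 8 h and 0.68, 1.18 and 0.81 at 96 h (log2 fold change 2.47 ± 0.20 (SE), q = 5.92e-07), and both were higher on each 96 h array. BHLHE41, a repressor listed as BHLHB3, rose by 3.43 and NFE2, a factor of blood cells, by 2.89, with 1 of the 8 h arrays well above background for NFE2. KLF4 lay at -0.12 and 0.09 at 8 h and -0.55, -1.68 and -0.64 at 96 h (log2 fold change -0.94, q = 0.0474), just under 1. Of 17 genes known from osteoclasts, the bone-resorbing relatives of macrophages, 6 were lower and 3 higher, beside 8.34% and 10.2% of all genes tested. The lower count moved with the arrays, being 4 without 96 h replicate 2 and 1 with the 5 arrays alone, where 1 was higher. The median log2 fold change was -0.71, and -0.36 within slide 1, where replicate 1 is the only 96 h array. OCSTAMP, a fusion protein listed as C20orf123, lay at 3.28 and 3.29 at 8 h and -2.31, -2.12 and -1.94 at 96 h, a 42.5-fold fall (log2 fold change -5.41 ± 0.39 (SE), q = 1.59e-07). Its relative DCSTAMP, listed as TM7SF4, lay at 2.52 and 2.48 at 8 h and 2.75, 1.97 and 1.81 at 96 h (log2 fold change -0.32, q = 0.34), with the groups overlapping. JDP2, a dimerisation partner of AP-1, lay at 2.03 and 1.94 at 8 h and 4.72, 4.79 and 4.60 at 96 h (log2 fold change 2.72 ± 0.20 (SE), q = 1.98e-07), OSCAR, a co-stimulatory receptor, rose by 1.53, or 2.30 with the slide block, a call lost with the 5 arrays alone (q = 0.11), and SRC, a kinase of the resorbing osteoclast, changed by -1.73, a call lost without 8 h replicate 1 (-1.32, q = 0.0572). Among 16 genes of alternative activation, 5 were higher and 3 lower (10.2% and 8.34% of all genes), and of the 12 well above background on all 5 arrays 3 and 3. IL1R2, the decoy receptor of interleukin-1, lay at -2.05 and -2.06 at 8 h and 1.30, 1.49 and 2.31 at 96 h (log2 fold change 3.75 ± 0.26 (SE), q = 1.08e-07), in the opposite direction from IL1RN. MS4A4A, a surface protein, lay at -4.28 and -4.99 at 8 h and 0.81, 1.02 and 1.95 at 96 h (log2 fold change 5.90 ± 0.38 (SE), q = 6.72e-08), with 1 of the 8 h arrays well above background. TGM2, transglutaminase, changed by -1.85.

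Of 40 genes of cholesterol export and lipid handling, 8 were called higher and 7 lower (10.2% and 8.34% of all genes), with the slide block 9 and 4 (7.86% and 5.84% of all) and with the 5 arrays alone 6 and 1 (5.67% and 3.05%). Without 96 h replicate 1 the counts were 8 and 10, with normexp 7 and 4, and of the 36 genes well above background on all 5 arrays 7 were higher and 4 lower. ABCA1, which loads apolipoprotein with cholesterol, lay at -0.15 and -0.37 at 8 h and 2.79, 2.10 and 2.60 at 96 h (log2 fold change 2.75 ± 0.26 (SE), q = 1.94e-06). ABCG1, which passes cholesterol to high-density lipoprotein, rose by 4.92, with 1 of the 8 h arrays well above background. APOE, the apolipoprotein that macrophages secrete, lay at 4.57 and 4.44 at 8 h and 7.35, 6.93 and 5.58 at 96 h (log2 fold change 2.11 ± 0.38 (SE), q = 0.000666), and replicate 3 was the lowest of the 96 h arrays but above both 8 h arrays. The APOE call was lost with the 5 arrays alone (q = 0.0654). SCD, a fatty acid desaturase, rose by 1.91. FABP4, a fatty acid carrier of macrophages, lay at -0.85 and 0.05 at 8 h and -4.77, -4.25 and -1.68 at 96 h (log2 fold change -3.17 ± 0.62 (SE), q = 0.00134), with 2 of the 96 h arrays well above background and a call lost with the 5 arrays alone (q = 0.0879). ANGPTL4, an inhibitor of lipoprotein lipase, changed by -2.35, with 1 of the 96 h arrays well above background. Its call was lost with normexp background correction (-0.88, q = 0.00157). PLIN2, the coat protein of lipid droplets listed as ADFP, changed by -1.12. The PLIN2 call was lost without 96 h replicate 2 (-0.94, q = 0.00196), with the slide block (-0.81) and with the 5 arrays alone (q = 0.0999). NR1H3, the liver X receptor, lay at 5.11 and 5.13 at 8 h and 4.95, 4.77 and 4.51 at 96 h (log2 fold change -0.38, q = 0.168) and PPARG, a fatty acid receptor, at 3.51 and 3.47 at 8 h and 3.31, 2.57 and 2.88 at 96 h (log2 fold change -0.57, q = 0.0833), so neither passed. In cholesterol synthesis and uptake 6 of 26 genes were lower and 1 higher (8.34% and 10.2% of all genes), but 3 were lower without 8 h replicate 2 2 without 96 h replicate 1 and 1 with the 5 arrays alone. STARD4, a sterol carrier, lay at 1.99 and 2.12 at 8 h and -0.33, -0.10 and 0.86 at 96 h (log2 fold change -1.91 ± 0.30 (SE), q = 0.000244). Of the enzymes, MVD changed by -1.57, HMGCS1 by -1.11, LSS by -1.09 and SQLE by -1.05. All 4 calls depended on an array, since that of MVD was lost without 8 h replicate 1, 8 h replicate 2, 96 h replicate 1 or 96 h replicate 3 (-0.86 to -1.65, q = 0.0565 to 0.163), that of HMGCS1 without 8 h replicate 1, 8 h replicate 2 or 96 h replicate 2 (-0.78 to -1.13, q = 0.0448 to 0.0865) and that of SQLE without 8 h replicate 2 or 96 h replicate 1 (-0.79 to -0.91, q = 0.0272 to 0.0941). The call of LSS was lost without 96 h replicate 1 (-0.93, q = 0.0115).

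Eicosanoid genes had 3 of 18 higher and 4 lower (10.2% and 8.34% of all genes), with the slide block 3 and 2 (7.86% and 5.84% of all) and without replicate 3 4 and 3. ALOX5, the first enzyme of leukotriene synthesis, lay at 1.77 and 1.90 at 8 h and 5.30, 5.50 and 5.69 at 96 h, a 12.6-fold rise (log2 fold change 3.66 ± 0.19 (SE), q = 1.24e-08). ALOX5AP, its activating protein, and PTGDS, which makes prostaglandin D, rose by 1.36 and 1.92. PTGS1, a cyclooxygenase, lay at 4.37 and 4.38 at 8 h and 3.48, 3.41 and 3.23 at 96 h, a 2.01-fold fall (q = 0.00188), with a call lost without 96 h replicate 3 (-0.93, q = 0.00409), while PTGS2, the inducible form, lay at -2.55 and -2.46 at 8 h and -2.24, -3.13 and -2.56 at 96 h (log2 fold change -0.14, q = 0.779). PLA2G7, which cleaves platelet-activating factor, lay at 1.66 and 1.91 at 8 h and -1.45, -1.32 and -0.15 at 96 h (log2 fold change -2.76 ± 0.30 (SE), q = 8.02e-06). PLA2G4A, the phospholipase that releases arachidonic acid, changed by -1.21, a call lost without 8 h replicate 1, 8 h replicate 2, 96 h replicate 1 or 96 h replicate 2 (-0.83 to -1.25, q = 0.0858 to 0.145). Lysosomal genes were called at about the rate of all genes tested, with 5 of 63 higher, 6 lower and a median of -0.16, beside 10.2% and 8.34%, and the counts were 3 and 5 without replicate 3 or with the slide block, 3 and 6 with normexp and 1 and 3 with the 5 arrays alone. CTSL, cathepsin L, listed as CTSL1, lay at 8.31 and 8.21 at 8 h and 6.27, 5.81 and 6.49 at 96 h (log2 fold change -2.07 ± 0.21 (SE), q = 3.66e-06), and PSAP, the precursor of saposins, at 6.08 and 5.69 at 8 h and 4.41, 4.38 and 3.36 at 96 h (log2 fold change -1.84 ± 0.32 (SE), q = 0.000559). CTSF, cathepsin F, lay at -0.31 and -0.10 at 8 h and 1.71, 1.68 and 1.72 at 96 h (log2 fold change 1.91 ± 0.19 (SE), q = 3.45e-06). LAMP1, a membrane protein of lysosomes, lay at 7.22 and 7.26 at 8 h and 7.19, 6.90 and 7.17 at 96 h (log2 fold change -0.15, q = 0.58).

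Of 30 genes of the amino acid and endoplasmic reticulum stress responses tested, 8 were called higher and 4 lower (10.2% and 8.34% of all genes), and without replicate 3 the counts were 12 and 3. The lower count was 1 without 8 h replicate 1 or with the 5 arrays alone and 2 without 8 h replicate 2. PHGDH, the first enzyme of serine synthesis, lay at 2.71 and 2.55 at 8 h and 7.30, 6.67 and 6.28 at 96 h, a 17.4-fold rise (log2 fold change 4.13 ± 0.35 (SE), q = 7.75e-07). PSAT1, the next enzyme, lay at 0.37 and 0.78 at 8 h and 5.24, 4.38 and 4.15 at 96 h (log2 fold change 4.02 ± 0.35 (SE), q = 1.12e-06), and PSPH, the last, at 3.92 and 4.02 at 8 h and 4.93, 4.78 and 5.17 at 96 h (log2 fold change 1.00, q = 0.000977), just under the threshold. ASNS, asparagine synthetase, lay at 3.84 and 4.01 at 8 h and 6.90, 5.89 and 5.53 at 96 h (log2 fold change 2.19 ± 0.33 (SE), q = 0.000146). CHAC1, which degrades glutathione, DDIT4 and SESN2, inhibitors of mTORC1 signalling, and TRIB3, a pseudokinase, all targets of the factor ATF4, rose by 2.26, 2.98, 1.89 and 1.81, with the SESN2 call lost with the 5 arrays alone (q = 0.109). ATF4 itself lay at 7.22 and 7.26 at 8 h and 7.96, 7.81 and 7.61 at 96 h (log2 fold change 0.56, q = 0.0254) and DDIT3, another stress factor, at 0.70 and 0.96 at 8 h and 1.40, 1.35 and 0.86 at 96 h (log2 fold change 0.38, q = 0.222). HSPA5, the chaperone BiP, lay at 4.05 and 4.23 at 8 h and 2.31, 2.06 and 2.99 at 96 h (log2 fold change -1.68 ± 0.24 (SE), q = 9.25e-05). SDF2L1, a partner of HSPA5, changed by -1.21, a call lost without 8 h replicate 1, 8 h replicate 2 or 96 h replicate 1 (-0.85 to -1.22, q = 0.0263 to 0.0652), though with the slide block the change was -1.91. PDIA4, a disulphide isomerase, changed by -1.15, a call lost without 8 h replicate 1, 8 h replicate 2 or 96 h replicate 1 (-0.94 to -1.17, q = 0.0295 to 0.0607), and ATF5, a stress factor, by -1.26, a call lost without 8 h replicate 1 or 96 h replicate 3 (-0.86 to -0.92, q = 0.0423 to 0.191) and with the slide block (-0.52). Of 13 heat shock genes, 0 were higher and 1 lower, HSPA1A at -1.16, which has a near-identical copy and whose call was lost without 8 h replicate 1, 8 h replicate 2, 96 h replicate 1 or 96 h replicate 3 (-0.65 to -1.20, q = 0.0923 to 0.168).

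Of 34 genes of the NRF2 response and of iron handling, 5 were lower and 1 higher (8.34% and 10.2% of all genes), and with the slide block 3 and 0 (5.84% and 7.86% of all). HMOX1, haem oxygenase, lay at 7.91 and 7.88 at 8 h and 5.39, 5.82 and 5.28 at 96 h, a 5.28-fold fall (log2 fold change -2.40 ± 0.25 (SE), q = 5.53e-06). HAMP, the iron hormone hepcidin, lay at 0.67 and 0.48 at 8 h and -1.92, -2.05 and -1.93 at 96 h (log2 fold change -2.53 ± 0.18 (SE), q = 1.33e-07). NQO1 lay at -0.51 and -0.29 at 8 h and -1.21, -0.98 and -0.10 at 96 h (log2 fold change -0.36, q = 0.325) and GCLM, of glutathione synthesis, at 2.10 and 2.50 at 8 h and 1.94, 1.41 and 1.73 at 96 h (log2 fold change -0.61, q = 0.0572), so neither of these NRF2 targets passed. The member called higher, CYBRD1, a ferric reductase, at 1.02, lost its call without 8 h replicate 1, 8 h replicate 2, 96 h replicate 1 or 96 h replicate 3 (0.64 to 1.10, q = 0.0555 to 0.171). Of 10 genes of metallothioneins, small proteins that bind zinc and copper, 8 were called higher and 0 lower (10.2% and 8.34% of all genes), with a median of 2.34. MT2A lay at 4.35 and 4.64 at 8 h and 7.29, 7.44 and 6.78 at 96 h, a 6.39-fold rise (log2 fold change 2.68 ± 0.23 (SE), q = 8.34e-07). MT1X lay at 2.98 and 3.13 at 8 h and 5.37, 5.24 and 5.35 at 96 h (log2 fold change 2.27 ± 0.18 (SE), q = 4.41e-07) and MT1G at 2.86 and 2.97 at 8 h and 5.54, 5.28 and 5.17 at 96 h (log2 fold change 2.41 ± 0.20 (SE), q = 6.32e-07). MT1B, MT1M, MT1H, MT1A and MT1E rose by 2.57, 2.48, 2.43, 2.11 and 1.88, MT1M by 1.58 with the slide block, but the coding sequences of this family are nearly identical and probes may share RNA between them. MT1F lay at 1.87 and 2.19 at 8 h and 3.11, 3.14 and 2.68 at 96 h (log2 fold change 0.94, q = 0.00498), and MT3 at 1.00 and 0.90 at 8 h and 0.66, 1.85 and 1.73 at 96 h (log2 fold change 0.47, q = 0.387), so neither was called. Among the other genes of the list MTF1, the zinc-sensing factor that binds metal response elements, was called lower, at 5.04 and 5.37 at 8 h and 3.58, 3.42 and 3.05 at 96 h (log2 fold change -1.86 ± 0.21 (SE), q = 9.53e-06), and the zinc exporter SLC30A1 lay at 2.44 and 2.90 at 8 h and 2.72, 2.11 and 2.22 at 96 h (log2 fold change -0.32, q = 0.414).

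Promoters of MT2A and MT1X are shown because their metal response elements are the known targets of MTF1. The letters TGCACNC and TGCGCNC were searched on both strands, and all 4 metallothionein genes with a window held them, of 10 tested, against 35.3% of the windows of genes tested and 29.6% of all, so these letters alone are common. The stretches are the last 160 bases before the start, chr16:56608424-56608583 for MT2A and chr16:56682310-56682469 for MT1X, both on the plus strand of GRCh38.p14 in RefSeq, with matches in capitals.
MT2A: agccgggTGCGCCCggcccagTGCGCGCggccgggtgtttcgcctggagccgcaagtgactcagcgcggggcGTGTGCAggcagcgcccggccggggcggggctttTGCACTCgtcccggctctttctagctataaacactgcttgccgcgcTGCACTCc
MT1X: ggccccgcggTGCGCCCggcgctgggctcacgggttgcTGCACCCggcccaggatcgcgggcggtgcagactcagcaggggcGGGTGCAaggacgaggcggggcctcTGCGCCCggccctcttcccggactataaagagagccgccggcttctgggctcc
MT2A held 5 matches in this stretch and MT1X 4.

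Genes of energy metabolism are given beside the 10.2% higher and 8.34% lower of all genes tested. Of 60 genes of oxidative phosphorylation 1 was called higher and 0 lower, with a median of 0.15, and of 21 of glycolysis 1 was higher and 0 lower, with a median of 0.07. NDUFB10, a subunit of complex I, lay at 3.67 and 3.86 at 8 h and 4.87, 4.73 and 5.07 at 96 h (log2 fold change 1.12 ± 0.18 (SE), q = 0.000299), a call lost with the 5 arrays alone (q = 0.0778). The glycolytic call, PFKM at 1.10, was lost without 8 h replicate 1, 8 h replicate 2 or 96 h replicate 3 (0.98 to 1.15, q = 0.0344 to 0.0916). GAPDH lay at 7.41 and 7.31 at 8 h and 7.60, 7.78 and 6.49 at 96 h (log2 fold change -0.07, q = 0.882), with replicate 3 the lowest array. Of 22 HIF target genes 1 was higher and 2 lower (10.2% and 8.34% of all genes), against 4 and 2 without 96 h replicate 2, 3 and 2 without replicate 3, 2 and 1 with the slide block, 0 and 0 with the 5 arrays alone, and 1 and 1 of the 20 well above background on all 5 arrays. VEGFA, a growth factor for vessels, lay at 0.24 and 0.32 at 8 h and 1.63, 1.23 and 0.93 at 96 h (log2 fold change 0.99, q = 0.00184), just under the threshold. EGLN1, an oxygen sensor, rose by 1.17, a call lost with the 5 arrays alone (q = 0.0787), and PFKFB4, a regulator of glycolysis, changed by -2.18, a call lost with the slide block (-1.50, q = 0.12) and with the 5 arrays alone (q = 0.0987). EGLN3, a relative of EGLN1, fell at least 2.01-fold, a call lost without 8 h replicate 2 (-1.46, q = 0.172). Among 11 housekeeping genes 1 was higher and 0 lower, with a median of 0.05, and the member that rose was B2M, the light chain of MHC class I (log2 fold change 1.19 ± 0.20 (SE), q = 0.000365), with a call lost with the slide block (0.96, q = 0.0238), within slide 1 (q = 0.0374) and with the 5 arrays alone (q = 0.0718). ACTB lay at 8.66 and 9.08 at 8 h and 8.94, 8.72 and 8.46 at 96 h (log2 fold change -0.16, q = 0.629) and RPL13A at 7.47 and 7.92 at 8 h and 7.83, 7.79 and 7.62 at 96 h (log2 fold change 0.05, q = 0.873).

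**Figure D3:**
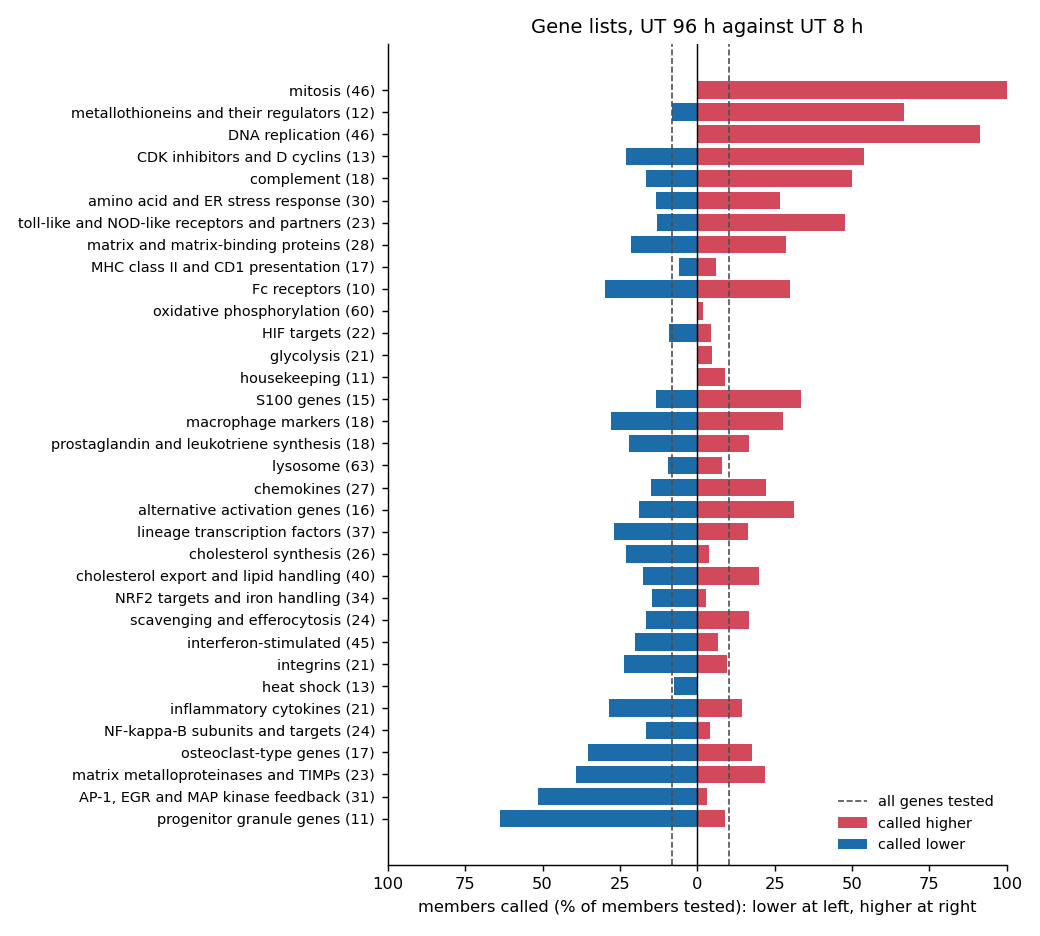
Percentage of the tested members of each gene list that were called higher (red, to the right) or lower (blue, to the left) at 96 h, ordered by the median log2 fold change, with the number tested in brackets. Dashed lines give the 10.2% higher and 8.34% lower of all genes tested, and mitosis (46 of 46 higher), DNA replication (42 of 46 higher) and progenitor granule genes (7 of 11 lower) lie far outside them.

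Markers of other cell types were read to check the identity of the cells. Of all genes tested 10.2% were called higher and 8.34% lower, so counts over lists this short cannot settle identity. The epithelial, B cell and erythroid markers tested, 2, 4 and 3 genes, had no call in either direction. Of 4 fibroblast markers 1 rose, DCN as given above, and 1 fell, PDGFRB (log2 fold change -1.89 ± 0.21 (SE), q = 8.61e-06), while COL1A1, COL1A2 and LUM were near background in both groups. Of 4 markers of T and NK cells GNLY rose and 0 fell, while CD3D, CD3G, CD247 and LCK were near background. VWF, of endothelial cells and platelets, lay at -0.02 and -0.13 at 8 h and -2.32, -2.16 and -2.72 at 96 h (log2 fold change -2.32 ± 0.21 (SE), q = 1.16e-06), and the erythroid marker HBB was near background.

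For genes near background in either group only a lower bound on the change can be given. The largest lower bounds on a rise were CILP, a cartilage matrix protein, at least 47.9-fold, and TMEM71, a membrane protein, 29.9-fold. ALPK2, a kinase, followed at 27.5-fold, GUCY2F, a guanylate cyclase, at 17.7-fold and BPI, a granule protein that neutralises lipopolysaccharide, at 14.3-fold. CILP lay at -5.32 and -5.32 at 8 h and 0.16, 0.40 and 0.78 at 96 h. BPI lay at -6.32 and -5.83 at 8 h and -1.41, -1.52 and -1.22 at 96 h. The fitted log2 change of BPI was 4.70, but 2.61 without 8 h replicate 2, where the brightest probe was chosen anew. The largest lower bounds on a fall were MB, myoglobin, at least 16.1-fold, and XIRP1, an actin-binding protein listed as CMYA1, 15.5-fold. EGR4 followed as given, then FBLIM1, a filamin partner, at 12.5-fold, FCER2 as given and CD226, an activating receptor, at 7.93-fold. MB lay at -0.94 and -1.06 at 8 h and -6.79, -5.39 and -6.43 at 96 h, and XIRP1 at -0.95 and -1.17 at 8 h and -6.32, -5.06 and -6.61 at 96 h. For all of these genes the groups were apart, and q was at most 0.000156. Both follow in part from the choice of called genes bright in 1 group and near background in the other.

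The UT arrays of 24 and 48 h show where within the interval a change lay, as a description that shares the 8 h and 96 h arrays. Of the 1976 genes called higher, 11.3% had covered at least 50% of the change at 24 h, 39.9% first at 48 h and 48.7% only by 96 h, and of the 1608 called lower the shares were 18.5%, 29.2% and 52.4%. Of 42 called replication genes, 1 had covered 50% by 24 h, 35 first at 48 h and 6 only by 96 h, with a median share of 16.8% at 24 h and 68.2% at 48 h. Of 46 mitosis genes, 22 had covered 50% first at 48 h and 24 only by 96 h, with a median share of -4.8% and 49.0%, and the difference between the lists was not tested. CDC20 had mean levels of 1.83 at 8 h, then 1.25 at 24 h, 2.86 at 48 h and finally 4.26 at 96 h, so it was lower at 24 h than at 8 h. CDC6 had mean levels of 0.16 at 8 h, then 0.57 at 24 h, 2.08 at 48 h and finally 2.27 at 96 h. CDK1 had mean levels of 1.48 at 8 h, then 1.33 at 24 h, 3.14 at 48 h and finally 4.63 at 96 h. Of the 16 AP-1 and immediate early genes called lower, 14 passed 50% only by 96 h, and EGR1 had mean levels of 4.06 at 8 h, then 3.99 at 24 h, 3.10 at 48 h and finally 0.41 at 96 h. The 6 chemokines called higher all passed 50% by 24 h, and 4 of them were at least 1 unit above both ends at 24 or 48 h. S100A8 stayed near its first level until 24 h, with -0.67 at 8 h, then -0.62 at 24 h, 2.79 at 48 h and finally 5.82 at 96 h. CD14 was already higher at 24 h, with 0.69 at 8 h, then 3.03 at 24 h, 4.82 at 48 h and finally 4.91 at 96 h. HMOX1 was lower from 48 h, with 7.89 at 8 h, then 7.65 at 24 h, 5.09 at 48 h and finally 5.49 at 96 h. PHGDH was higher from 48 h, with 2.63 at 8 h, then 2.18 at 24 h, 4.10 at 48 h and finally 6.75 at 96 h.

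**Figure D4:**
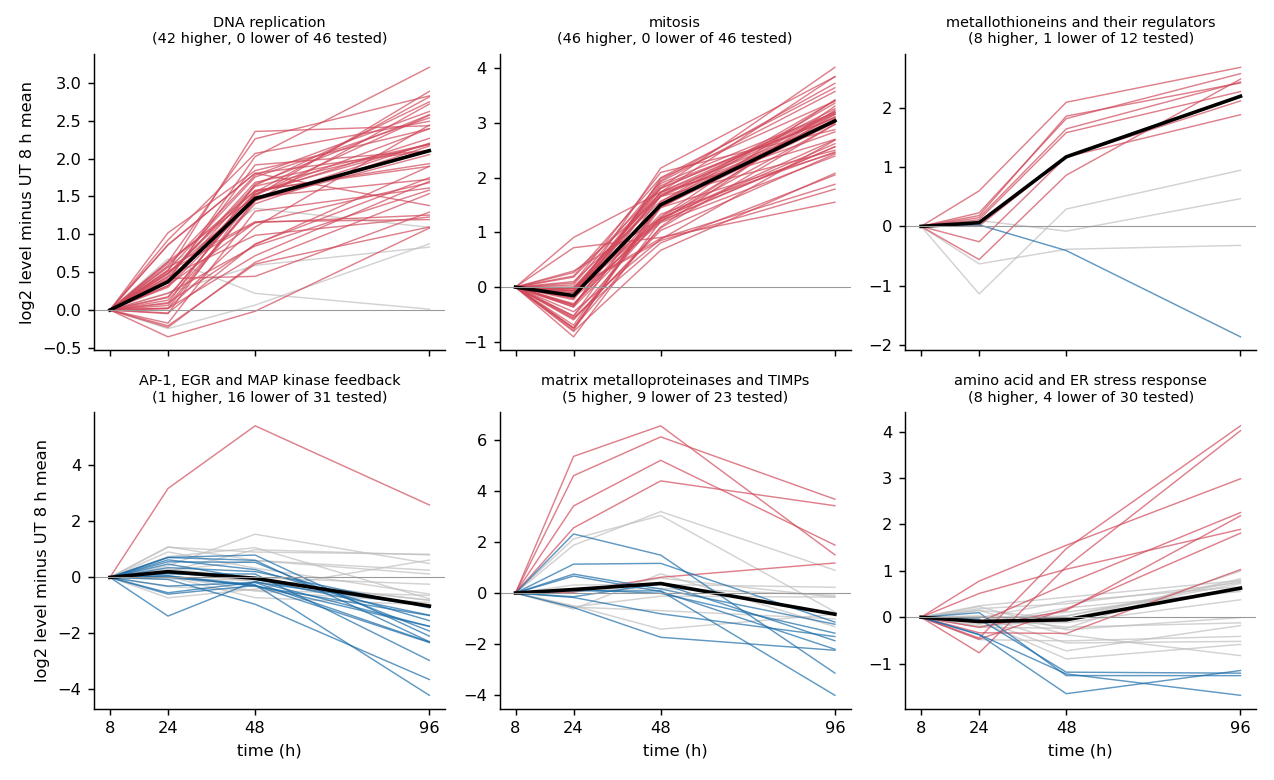
Mean levels of UT cells at 8, 24, 48 and 96 h (horizontal axis, hours) relative to the mean at 8 h (vertical axis, log2, with a scale of its own in each panel) for the tested members of 6 gene lists. Thin lines are genes, red where called higher at 96 h, blue where called lower and grey where not called, and the thick black line is the median, which for mitosis lies below 0 at 24 h and reaches 3.04 at 96 h.

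Some genes peaked between the ends, so the 96 h to 8 h comparison does not show their course. Among genes not called, 416 were at least 1 unit above both ends at 24 or 48 h and 438 at least 1 unit below both. MMP1, interstitial collagenase, had mean levels of 4.06 at 8 h, then 6.19 at 24 h, 7.11 at 48 h and finally 3.32 at 96 h. TIMP1, an inhibitor of these proteases, had mean levels of 4.43 at 8 h, then 6.31 at 24 h, 7.63 at 48 h and finally 5.33 at 96 h. CCL2, which attracts monocytes, had mean levels of 4.64 at 8 h, then 6.84 at 24 h, 6.02 at 48 h and finally 4.89 at 96 h. All 3 were highest at 24 or 48 h and came back by 96 h. Within the called genes, MMP3 had mean levels of -4.36 at 8 h, then 1.01 at 24 h, 2.21 at 48 h and finally -2.86 at 96 h, so its level at 96 h was below that at 24 and 48 h. LYZ had mean levels of -1.24 at 8 h, then -2.45 at 24 h, -4.17 at 48 h and finally -2.70 at 96 h, lowest at 48 h.

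The same interval was measured in cells that received 0.1 mM vit C, on 3 arrays at 8 h and 2 at 96 h, and the difference of the changes was tested as an interaction. It passed for 303 genes, 1.57% of those tested, 180 with the larger value in vit C-treated cells and 123 with the smaller. This count depends on the arrays, being 1000 without UT 96 h replicate 3, 782 without UT 96 h replicate 1, 222 without UT 96 h replicate 2, 96 and 84 without UT 8 h replicates 1 and 2, 167, 171 and 188 without vit C 8 h replicates 1, 2 and 3, and 79 and 114 without vit C 96 h replicates 1 and 2. Both vit C arrays of 96 h lay on slide 4 with no other array, and had the highest 75th percentiles of signal, 786.5 and 902.3, so slide and condition cannot be told apart there. No gene of the mitosis and replication lists passed, with KIF11 at 4.02 in UT and 3.71 in vit C-treated cells and PCNA at 2.12 and 2.45. HAMP changed by -2.53 in UT and 0.23 in vit C-treated cells (difference 2.76 ± 0.25 SE, q = 0.000256). IL1RN changed by -1.77 and -4.29 (difference -2.52 ± 0.29 SE, q = 0.000852), and EGR2 by -2.31 and -4.84 (difference -2.53 ± 0.39 SE, q = 0.00524). ID3 changed by 2.47 and 0.43 (difference -2.04 ± 0.29 SE, q = 0.00313). LAMB1, a laminin chain, changed by -1.07 and 1.82 (difference 2.89 ± 0.37 SE, q = 0.00131), though its call in UT cells was lost without 8 h replicate 2, 96 h replicate 1 or 96 h replicate 2 (-0.87 to -0.97, q = 0.0195 to 0.0889). The differences of HAMP, IL1RN, EGR2, ID3 and LAMB1 passed in all 18 settings run for them.

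**Figure D5:**
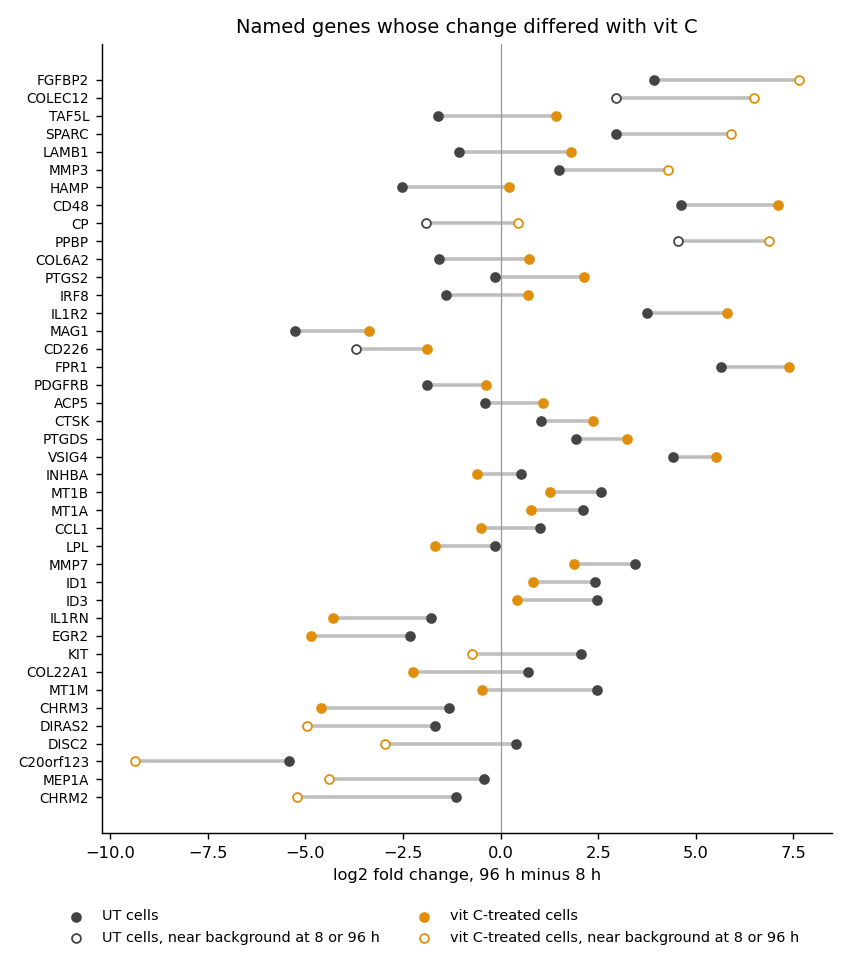
Log2 fold change from 8 to 96 h in UT cells (dark points) and in vit C-treated cells (orange points) for the 41 named genes whose changes differed between them, ordered by the fitted difference. Open points mark changes with no array well above background at 8 h or at 96 h in those cells, among them the vit C changes of FGFBP2 and CHRM2 at the top and bottom, so that their size and rank are not measured, while HAMP, at -2.53 and 0.23, and IL1RN, at -1.77 and -4.29, have filled points.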

How the data were processed

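RNA of PMA-differentiated THP-1 cells was labelled with Cy3 by the authors and hybridized to 1-colour Agilent arrays, 1 sample per array. The deposited scanner files hold intensity values per spot, made by the authors with Agilent Feature Extraction (10.5.1.1 per the file headers, while the methods name another version), whose processed signal is spatially detrended and not normalized between arrays. The deposited series table holds log2 values that the authors shifted to the 75th percentile in GeneSpring GX, and it was used as an alternative. Precision is limited by the number of arrays, 2 at 8 h and 3 at 96 h. From the scanner files, log2 of the processed signal minus the 75th percentile of each array was taken, spots of a probe were averaged, and control spots were left out, as were 177 probes with outlier flags. Of 31033 gene names on the array, 15590 were current symbols and 3309 older ones. The group means of all 19 arrays, 8 groups, were fitted with limma 3.58.1 in R 4.3.3, so that the groups share an estimate of the spread (11 residual and 3.11 prior degrees of freedom), and p-values were adjusted by the Benjamini-Hochberg method over 19290 genes. A probe was kept if all arrays of either group had it well above background, and a gene was read from its brightest kept probe. The difference between vit C-treated and UT cells was an interaction in the same fit. Tables and plots were made with Python 3.11.15, pandas 2.3.3 and matplotlib 3.10.9. The fit was tested on data simulated for the 96 h to 8 h comparison, with 50 changed genes of each size among 21214. It called 96% and 98% of those with true log2 changes of -3 and 3, and 52% and 64% of those with -1.5 and 1.5. It also called 3 of 21014 unchanged genes. The simulated noise was normal and independent, with no slide effect and no outlying array, and genes with opposing probes were kept. A far smaller share of genes changed than was called in the data, so these rates may not carry over.

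The comparison, its 40 gene lists and the genes named were chosen with earlier results of these data known. Named were the 12 largest rises and 12 largest falls among called genes well above background on all 5 arrays, in each list the 4 largest called rises and 4 largest called falls with its defining members, the 6 largest lower bounds in each direction and the 5 largest differences with vit C in each direction, by genes listed under a symbol (names of open reading frames, transcripts and clones left out except within lists, where OCSTAMP, listed as C20orf123, is named). Other named genes were chosen after their values were seen, and these are CDT1, MCM6, POLA2, TK1, CDC20, BUB1B, CENPA, FOXM1, AURKA, AURKB, CCNE1, CDKN1C, LY96, TLR7, CASP1, PYCARD, SESN2, PSPH, MT1A, MT1E, MT1F, MT3, SLC30A1, HLA-DRB1, INHBA, CCL1, COL22A1, ACTB and RPL13A. Some genes that the rule names are not reported here. The slide of an array was read from its barcode. Alternatives were the t-test that the methods name, other arrays in the fit, normalizations, background corrections, probe filters and probe choices, slide and replicate number as blocks, array weights and leaving out each array.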

Additional observations from a re-analysis of the deposited data

Results flagged for a closer look

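The change from 8 to 96 h differed between vit C-treated and UT cells for 41 of the 354 named genes by limma's interaction test. Of all genes tested 1.57% passed. The rule named 5 genes in each direction for this difference, and others were named after their values were seen. The share among named genes is therefore partly set by the choice. The values below are the vit C change minus the UT change on the log2 scale. In up to 18 other settings, which included leaving out each array of the 4 groups, 14 of the 41 passed throughout, and these were FGFBP2, COLEC12, LAMB1, HAMP, ID3, IL1RN, EGR2, COL22A1, MT1M, CHRM3, DIRAS2, OCSTAMP, MEP1A and CHRM2. The differences of 7 passed in 50% of settings or fewer, PPBP in 5, MT1B in 7 and COL6A2, IRF8, VSIG4, CTSK and INHBA in 9 of 18 each. Matrix and secreted proteins with the larger value under vit C were FGFBP2, a growth factor carrier, at 3.70, SPARC at 2.96, LAMB1 at 2.89, MMP3 at 2.78, COL6A2, of collagen VI, at 2.31 and PPBP at 2.35. Among iron and copper genes they were HAMP at 2.76 and CP, ceruloplasmin, at 2.37, which passed in 11 of 18 settings and turned to -0.368 with normexp. Receptors and surface proteins on that side were COLEC12 at 3.55, CD48 at 2.49, IL1R2 at 2.05, CD226 at 1.80, FPR1 at 1.75, PDGFRB at 1.53 and VSIG4 at 1.10. That of CD226 turned to -0.094 with normexp. Enzymes and regulators on that side were TAF5L, of a transcription complex, at 3.01, PTGS2 at 2.29, IRF8 at 2.10, GPAT3, listed as MAG1, at 1.90, ACP5, a phosphatase of osteoclasts, at 1.50, CTSK, cathepsin K, at 1.34 and PTGDS at 1.31.

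With the smaller value under vit C, receptors and membrane proteins were CHRM2 and CHRM3, muscarinic receptors, at -4.07 and -3.27, MEP1A, a membrane protease, at -3.96, OCSTAMP, listed as C20orf123, at -3.95, and KIT at -2.78, with no vit C array of either time well above background for KIT. DIRAS2, a small GTPase, lay at -3.28 and DISC2, a non-coding RNA, at -3.36. Metallothioneins on that side were MT1M at -2.96, MT1A at -1.33 and MT1B at -1.30, whose probes may share RNA. Transcriptional regulators were EGR2 at -2.53, ID3 at -2.04 and ID1 at -1.60. Secreted proteins and enzymes were COL22A1, a collagen, at -2.95, IL1RN at -2.52, MMP7 at -1.56, LPL, lipoprotein lipase, at -1.52, CCL1, a chemokine, at -1.50 and INHBA, an activin chain, at -1.13. CHRM2, MEP1A, C20orf123, KIT, DIRAS2 and DISC2 were not well above background on any vit C array of 96 h, and FGFBP2, COLEC12, SPARC, MMP3, PPBP, CP and KIT were not so on any vit C array of 8 h, while CP and CD226 were not so on any UT array of 96 h and COLEC12 and PPBP on any UT array of 8 h, so that the values given for these genes are fitted differences near background and their sizes are not measured. The vit C arrays of 96 h lay alone on their slide, and the part of slide in these differences was not tested.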

How the results depend on the processing

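Against the 1976 genes called higher and 1608 lower, leaving out each of the 5 arrays in turn gave 1678 to 2245 higher and 1163 to 1844 lower. The t-test that the methods name gave 1608 higher and 1111 lower at an unadjusted p under the threshold, and 370 and 203 after Benjamini-Hochberg adjustment. With only the 5 arrays in limma's fit the counts were 1094 and 588, a fit with fewer degrees of freedom. With normexp background correction they were 1359 and 899, for which the cause was not tested. That setting adds an offset of 50 to the signal, which makes log2 changes of dim probes smaller. A call lost there does not show that the change is absent. No other setting moved either count by over 1.5 times. Slide as a fixed term gave 1513 and 1125, slide as a random block 1972 and 1599, and the values of the series table gave 1971 and 1609. With the replicate number as a block 1887 genes were higher and 1471 lower. The labels do not say that numbers pair flasks, and the arrays were treated as not paired. Deviations from the group means of same-numbered arrays correlated by 0.05 and 0.182 over probes. The deviations of the 2 arrays at 8 h mirror each other, so these values cannot decide whether numbers pair flasks. Of 258 named genes that were called, 163 stayed called in every setting run other than the adjusted t-test, 51 lost the call in a fit without 1 array, 83 with the 5 arrays only, 51 in a setting on slide and 41 with normexp, and 0 changed direction. The 303 genes whose change differed with vit C became 79 to 1000 when each array of the 4 groups was left out in turn, 777 with normexp, 123 with the replicate block and 1067 with array weights, and the cause was not tested. With normexp the difference turned to -0.094 for CD226 and to -0.368 for CP. Signal over background limits genes of low level, whose fitted changes rest partly on values near background where not all arrays of a group were well above it.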

Other observations

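Among genes of the lists, several secreted proteins had their highest mean level of UT cells between the ends, which the comparison of 96 h with 8 h does not show. INHBA, a chain of activin, had mean levels of 0.38 at 8 h, then 1.56 at 24 h, 4.79 at 48 h and finally 0.91 at 96 h. CCL1, a chemokine of monocytes, had mean levels of 0.99 at 8 h, then 4.69 at 24 h, 6.52 at 48 h and finally 2.00 at 96 h. SERPINB2, an inhibitor of plasminogen activators, had mean levels of -2.40 at 8 h, then -0.16 at 24 h, 1.01 at 48 h and finally -2.77 at 96 h. These genes were highest at 48 h. PTGS2 had mean levels of -2.50 at 8 h, then -1.08 at 24 h, -0.15 at 48 h and finally -2.65 at 96 h. COL22A1 had mean levels of -3.72 at 8 h, then -1.79 at 24 h, 0.10 at 48 h and finally -3.01 at 96 h. AKR1C3, a reductase of steroids and prostaglandins, was lowest between the ends, with -0.86 at 8 h, then -3.70 at 24 h, -5.62 at 48 h and finally -3.23 at 96 h. These courses rest on 2 or 3 arrays per time and were not tested.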
